A study of Mus musculus with 11 samples.

Results

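The transcription factor p53 and 9 of its target genes were read in mouse glomeruli, the filtering units of the kidney. The set was given as a list of gene symbols: Trp53, Cdkn1a, Mdm2, Ccng1, Bax, Bbc3, Phlda3, Trp53inp1, Gdf15 and Sesn2. All 10 had rows in the deposited table, out of 13734 genes, and the rule that picks them uses no measured value.

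RNA from isolated glomeruli was sequenced as 11 libraries in 3 groups. The db/db mice carry 2 copies of the db mutation of the leptin receptor and are a model of type 2 diabetes, and db/m littermates with 1 copy were the non-diabetic reference. One db/db group received puerarin, a plant isoflavone, at 20 mg per kg body weight per day (n = 3, libraries S144, 2 and 3). Another db/db group received vehicle (n = 4, libraries S152, S153, 1 and 3), as did the db/m group (n = 4, libraries S184, S185, 2 and 3). All 3 groups received 5% DMSO by gavage, from 10 weeks of age for 6 weeks. The labels describe male mice on the BKS background, whereas the strain field names C57BL/6J. Whether a library holds 1 animal or pooled animals is not stated, so p-values cover only the spread between these libraries, which may be technical in part.

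The protein p53 is held at a low level by MDM2, a ubiquitin ligase whose gene p53 itself switches on. When DNA damage or another stress stabilises it, p53 binds DNA at paired half-sites and switches on genes for cell cycle arrest, cell death, growth control and its own restraint. Much of its activation happens on the protein, so the level of its messenger RNA need not follow its activity. In diabetic glomeruli, p21, the product of Cdkn1a, is known as an inhibitor of cyclin-dependent kinases that has been linked to cell enlargement.

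The Cdkn1a gene spans chr17:29090979-29100722 on the plus strand of mm10, and the table held a transcript from each of 2 start sites. The 250 bases before its upstream start (chr17:29090729-29090978, plus strand; RefSeq, GRCm38.p6) are shown because Cdkn1a was the member that varied most among the libraries. Capitals mark 2 matches to the p53 half-site, a palindrome of 10 bases, so that both strands are covered by 1 search.

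Cdkn1a upstream promoter: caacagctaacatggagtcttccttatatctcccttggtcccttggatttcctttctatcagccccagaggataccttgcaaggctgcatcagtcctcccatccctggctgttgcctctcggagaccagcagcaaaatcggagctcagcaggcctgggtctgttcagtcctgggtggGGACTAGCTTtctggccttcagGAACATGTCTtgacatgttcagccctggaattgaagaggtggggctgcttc

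The 2 matches begin 73 and 51 bases before the start, with 12 bases between them. Only exact matches were marked. The 10 bases directly after the second match, tgacatgttc, differ from the half-site pattern at 1 base. Which of these stretches p53 binds as a pair was not tested. The window at the downstream start (chr17:29093519-29093818) held no match. Promoter windows of 300 bases (250 before and 50 after a start) were found for 9 of the 10 members, 13 windows in all. Matches occurred in 5 of these 13 windows (38.5%), and in 2745 of the 32851 windows of all genes (8.36%). The 4 other matching windows each held 1 match, shown here in capitals with 10 bases on either side, to set the members' matches beside each other:

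Trp53, chr11:69580274-69580303, plus strand: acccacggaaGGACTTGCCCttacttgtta
Mdm2, chr10:117710925-117710954, minus strand: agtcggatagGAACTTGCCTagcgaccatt
Ccng1, chr11:40755452-40755481, minus strand: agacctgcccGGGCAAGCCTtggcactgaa
Bax, chr7:45467080-45467109, minus strand: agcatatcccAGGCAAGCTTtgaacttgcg

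No match was found in the windows of Bbc3, Phlda3, Gdf15 and Sesn2, which says only that these letters are not within those windows. No binding was measured here.

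The libraries held 35369703 to 44244460 counts over transcripts. The titles name 5 libraries by an S number and 6 by a tag of their group, with at least 1 of each kind per group. This name form was a covariate in the fit, and the labels do not call it a batch. In the puerarin group, Xist, which silences an X chromosome in females, reached 528 and 819 CPM (counts scaled to library size) in libraries 2 and 3, where the 9 remaining libraries had 0.519 to 6.47 CPM. For Ddx3y, a Y-linked gene, the same 2 had 3.06 and 0.909 CPM and the remaining 9 had 50.3 to 85.2 CPM. These values go against the label male. Puerarin values of every member are therefore given with and without these 2 libraries. Leaving them out keeps 1 puerarin library, which the fit assumes to vary like those of the other groups. For the genes named from the other gene lists, such values are given where the puerarin libraries did not overlap another group. All 8 podocyte markers were measured, and their summed level was 11993 to 15419 CPM in puerarin, 10615 to 13798 CPM in db/db vehicle and 12833 to 15803 CPM in db/m libraries. All 24 markers of kidney tubules were also measured, at 2363 to 9731 CPM in puerarin, 5909 to 15207 CPM in db/db vehicle and 3546 to 11105 CPM in db/m libraries.

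Per length, Bax stood above the other members, and Sesn2, Bbc3 and Gdf15 stood below them. On the RPKM scale (reads scaled to transcript length and library size, from each gene's highest transcript), the mean level over the 11 libraries was 88.4 for Bax, 35.1 for Ccng1, 34.8 for Cdkn1a, 29.1 for Phlda3, 21.9 for Mdm2, 20.0 for Trp53inp1 and 14.9 for Trp53. It was 6.42 for Sesn2, 4.15 for Bbc3 and 2.54 for Gdf15. The ranges of neighbours in this order overlapped except between Bax (76.2 to 99.2 RPKM) and Ccng1 (28.6 to 43.4), and between Trp53 (12.1 to 19.0) and Sesn2 (4.03 to 8.23). Cdkn1a had the widest range relative to its level among the members, 16.5 to 59.5 RPKM, and its highest library had 3.52 times the TMM-scaled CPM of its lowest. Gdf15 followed at 3.45 times and Sesn2 at 2.04 times, and Mdm2 varied least at 1.33 times. The levels below are CPM after TMM scaling, summed over a gene's transcripts, so reads shared by both transcripts of Trp53, Cdkn1a, Mdm2, Trp53inp1 and Gdf15 are counted more than once.

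**Figure D1:**
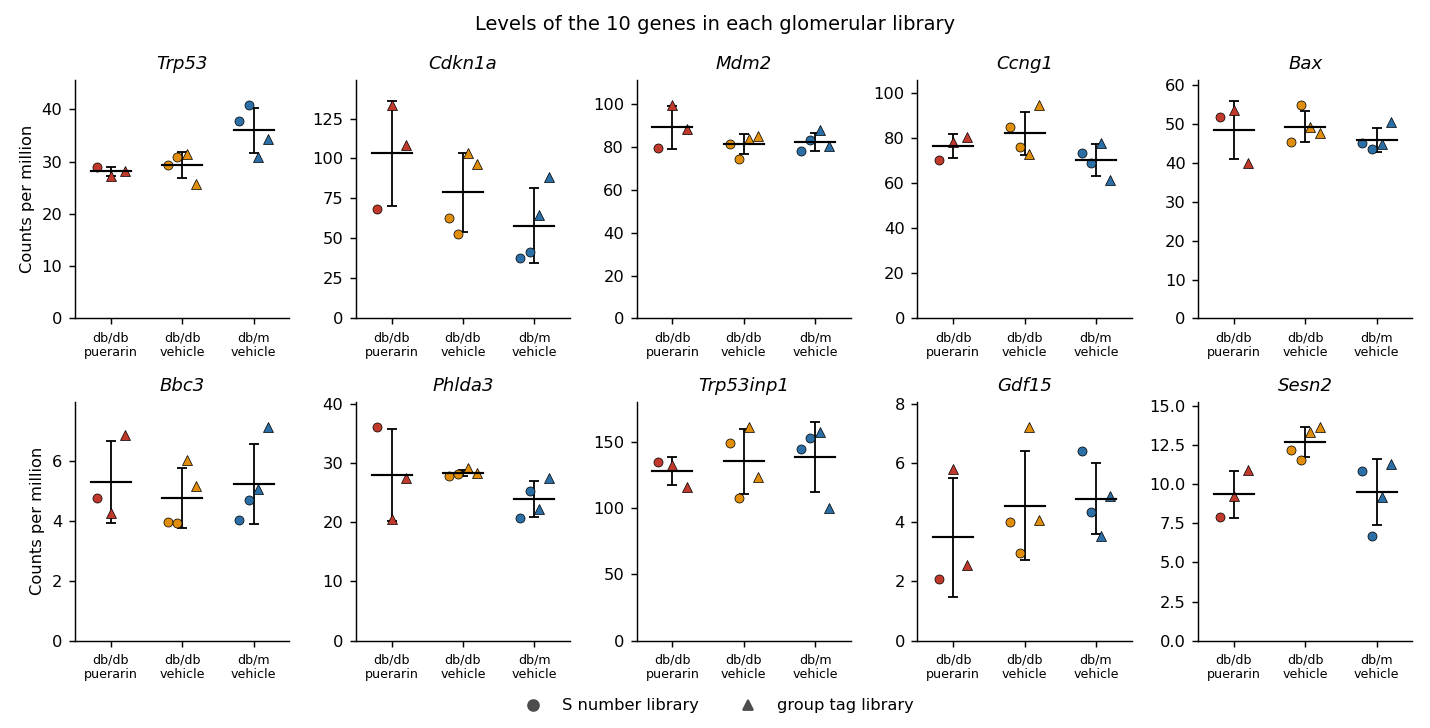
Level of each member in every library, in CPM after TMM scaling on a linear axis from 0, with a panel per gene. Groups run from db/db puerarin to db/db vehicle to db/m vehicle, marker shape gives the name form, the horizontal bar is the group mean and the error bar the SD. The Cdkn1a points split by name form inside every group, and the Sesn2 points of db/db vehicle lie above those of both other groups.

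No member passed the test in any of the 3 group comparisons. The test was edgeR's quasi-likelihood test with Benjamini-Hochberg adjustment over all 13734 genes, called under an adjusted p of 0.05. For db/db vehicle against db/m, 0 of 10 members were called, where 0.0437% of all genes were. For puerarin against db/db vehicle, 0 of 10 were called and 0% of all genes were. For puerarin against db/m, 0 of 10 were called and 0.182% of all genes were. Before adjustment, 3 members (Cdkn1a, Sesn2 and Trp53), 1 member (Sesn2) and 2 members (Cdkn1a and Trp53) had p under 0.05 in these comparisons, in that order, where 10.3%, 4.21% and 10.3% of all genes did. DESeq2, run as an alternative, called 1 member (Cdkn1a) in each comparison with db/m and 0 in puerarin against db/db vehicle. The 3 comparisons share groups, so their values are not independent of each other.

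The log2 fold changes of the members were centred close to those of all genes. In db/db vehicle against db/m, 5 of 10 members had a positive value and the median was 0.04, against 53.5% of all genes and a median of 0.02. In puerarin against db/db vehicle, 3 of 10 were positive with a median of -0.03, against 44.7% and -0.02 for all genes. In puerarin against db/m, 5 of 10 were positive with a median of 0.02, against 47.7% and -0.01. The members did not move as a block in any comparison.

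**Figure D2:**
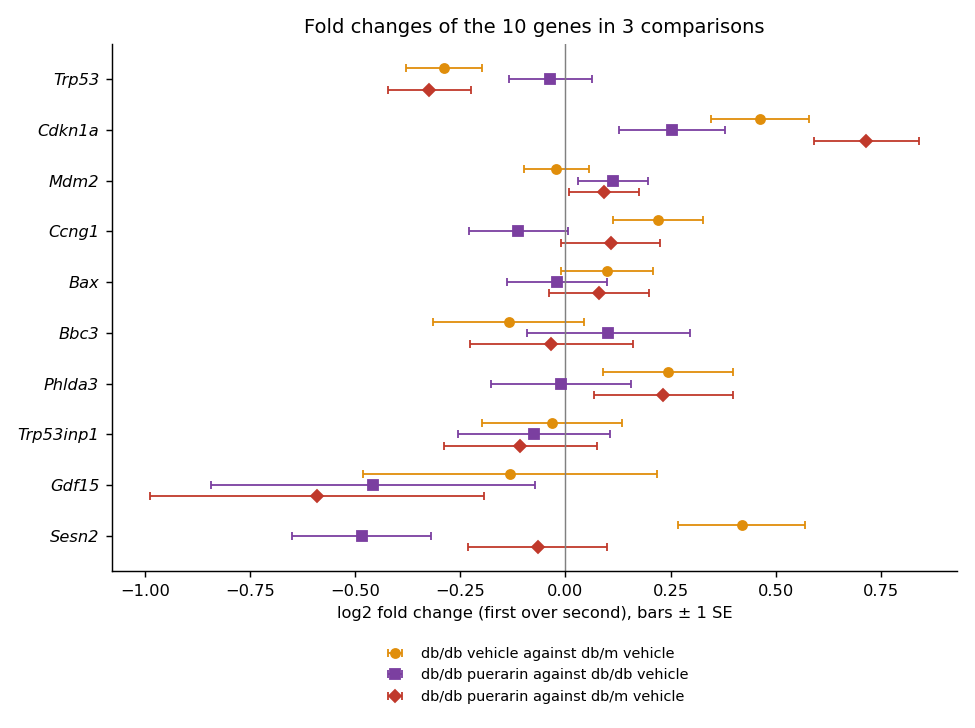
Log2 fold change of each member with its standard error in the 3 comparisons, from the edgeR fit with name form as a covariate. The points lie on both sides of 0 in every comparison, and Cdkn1a reaches 0.72 in puerarin against db/m.

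Trp53 (chr11:69580359-69591873, plus strand) encodes p53. It had 29.0, 27.3 and 28.2 CPM in puerarin libraries S144, 2 and 3. In db/db vehicle libraries S152, S153, 1 and 3 it had 29.3, 30.8, 31.5 and 25.8 CPM, and in db/m libraries S184, S185, 2 and 3 it had 37.8, 40.8, 31.0 and 34.3 CPM. Every puerarin library lay below every db/m library, which 3.92% of all genes also showed, while db/db vehicle and db/m overlapped. The log2 fold change was -0.29 (SE 0.09, adjusted p 0.292) in db/db vehicle against db/m and -0.32 (SE 0.10, adjusted p 0.274) in puerarin against db/m. Puerarin against db/db vehicle gave -0.04 (SE 0.10). Without puerarin libraries 2 and 3 the puerarin values were -0.37 against db/m (adjusted p 0.761) and -0.09 against db/db vehicle. The Trp53 level was thus lower in both db/db groups at the level of the means, 28.2 ± 0.82 CPM in puerarin libraries (SD, n = 3) and 29.3 ± 2.54 CPM in vehicle libraries (SD, n = 4), against 36.0 ± 4.24 CPM in db/m (SD, n = 4), without passing the test. In bulk glomeruli, fewer cells of a type and less RNA per cell cannot be told apart.

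Mdm2, which encodes the ligase that marks p53 for degradation, was the steadiest member. It had 79.8, 99.6 and 88.6 CPM in puerarin libraries, 81.6, 74.7, 83.8 and 85.1 CPM in db/db vehicle libraries and 78.0, 83.5, 87.9 and 80.4 CPM in db/m libraries. The 3 groups overlapped. Its log2 fold changes were -0.02 in db/db vehicle against db/m, 0.11 in puerarin against db/db vehicle and 0.09 in puerarin against db/m, each with an SE of 0.08. The puerarin values were 0.03 against db/db vehicle and 0.01 against db/m when puerarin libraries 2 and 3 were left out.

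Cdkn1a encodes p21, which halts the cell cycle by binding cyclin-dependent kinases. It had 68.3, 133.2 and 108.3 CPM in puerarin libraries S144, 2 and 3. In db/db vehicle libraries S152, S153, 1 and 3 it had 62.6, 52.9, 103.3 and 96.4 CPM, and in db/m libraries S184, S185, 2 and 3 it had 37.9, 41.4, 64.5 and 88.3 CPM. Taken over all libraries the 3 groups overlapped, because the S-number libraries were the lowest in each group. Within each name form the order was puerarin, then db/db vehicle, then db/m, with no overlap. This order held in both forms for 1 of 10 members and for 0.233% of all genes, and 0.138% of all genes had the reverse order. Each step rests on 1 or 2 libraries per group and form. The puerarin libraries of the group-tag form are libraries 2 and 3, whose Xist and Ddx3y values go against the label male. Without them the full order remains only in the S-number form, where library S144 alone stands for puerarin. Among the S-number libraries the puerarin library had 68.3 CPM, against 52.9 and 62.6 CPM with vehicle and 37.9 and 41.4 CPM in db/m. Among the group-tag libraries the puerarin pair had 108.3 and 133.2 CPM, against 96.4 and 103.3 CPM with vehicle and 64.5 and 88.3 CPM in db/m.

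With name form as a covariate, the Cdkn1a log2 fold change was 0.46 (SE 0.12, adjusted p 0.193) in db/db vehicle against db/m. Puerarin against db/db vehicle gave 0.25 (SE 0.13, adjusted p 0.967). Puerarin-treated db/db against db/m gave 0.72 (SE 0.13), a 1.64-fold higher level with an adjusted p of 0.0608. Cdkn1a passed the threshold under 2 alternatives. DESeq2 gave 0.46 (adjusted p 0.0315) in db/db vehicle against db/m and 0.71 (adjusted p 0.000155) in puerarin against db/m, in a run that called 290 and 297 genes in all. A fit with the tubule marker level as a further covariate gave 0.71 (adjusted p 0.0209) in puerarin against db/m and 0.48 (adjusted p 0.100) in db/db vehicle against db/m. Without puerarin libraries 2 and 3 the values were 0.76 (adjusted p 0.537) against db/m and 0.30 (adjusted p 0.802) against db/db vehicle. Over all 25 alternatives run, the value stayed between 0.39 and 0.58, between 0.18 and 0.39, and between 0.64 and 0.86 in the 3 comparisons, in the order given above.

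Name form was the contrast in which Cdkn1a passed the test. This contrast was added after the files had been seen. Cdkn1a was higher in the group-tag than in the S-number libraries by 0.86 on the log2 scale (SE 0.10, adjusted p 0.00259), more than in any comparison between the study's groups. It was the 1 member of 10 called, where 6.97% of all genes were. Cdkn1a passed in each of the 20 alternatives that kept both name forms, with values of 0.78 to 0.91, and it reached 0.88 (adjusted p 0.0312) without puerarin libraries 2 and 3. The other 9 members differed between name forms by -0.14 to 0.42, with adjusted p of 0.126 to 0.928, and Bbc3 had the upper end of that range (SE 0.15). Summed tubule markers lay apart between the name forms in some segments and overlapped in others, and no test was run. The 8 loop and distal tubule markers summed to 6325 to 12322 CPM in group-tag libraries, against 1606 to 5983 CPM in S-number libraries, and the 8 collecting duct markers to 491 to 849 CPM, against 83.2 to 350 CPM. The 8 proximal tubule markers overlapped, at 465 to 2036 CPM and 674 to 2021 CPM, as did the sum of all 24, at 7337 to 15207 CPM and 2363 to 8354 CPM. No marker was at 0 in all libraries. With the tubule level as a covariate the Cdkn1a difference was 0.91 (adjusted p 0.00326). That level averages the proximal, loop and distal, and collecting duct lists on the centred log2 scale. It overlapped between the name forms, at -0.11 to 1.09 in group-tag and -1.43 to 0.25 in S-number libraries. The fit therefore did not adjust for the segments that lay apart, and their part in the Cdkn1a difference was not tested.

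**Figure D3:**
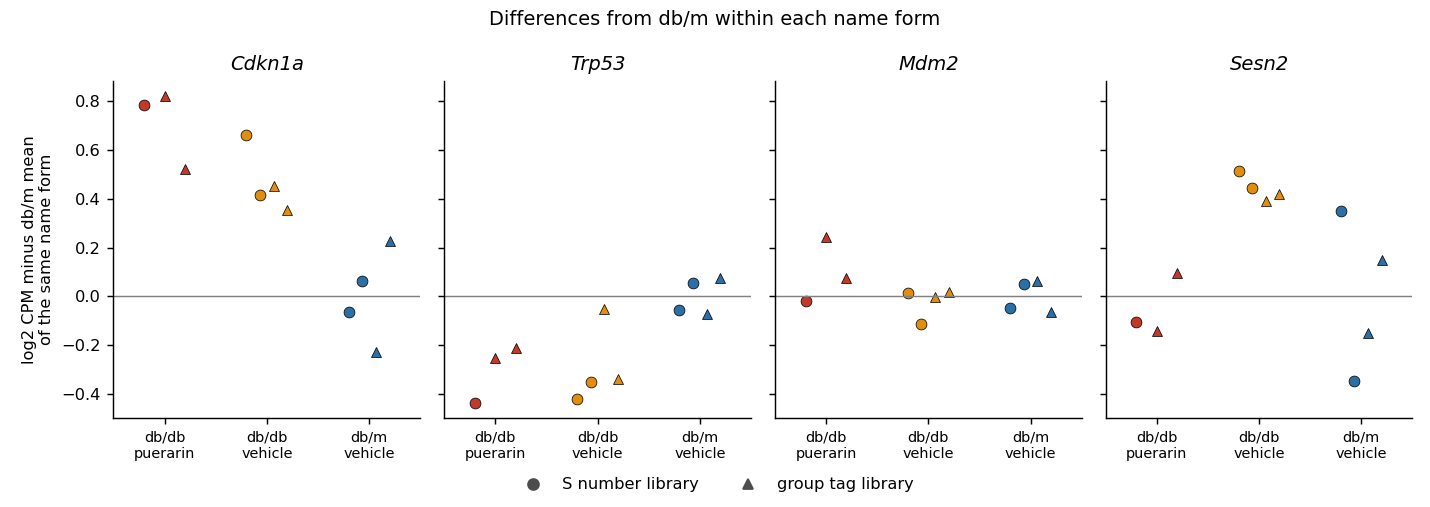
Log2 CPM of Cdkn1a, Trp53, Mdm2 and Sesn2 in each library minus the mean of the db/m libraries of the same name form, by group, with marker shape for the name form. Cdkn1a lies above 0 in all 7 db/db libraries and Trp53 below 0 in all 7, while Sesn2 lies above 0 in all 4 vehicle libraries and in 1 of 3 puerarin libraries. The 0 line is a mean of only 2 db/m libraries per name form. For Trp53 the groups overlap, with db/db vehicle 1 at -0.05 and db/m 2 at -0.07. The share of all genes with such a one-sided pattern was not computed.

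The group differences did not differ between name forms by a test of the difference itself. For the 10 members, the interaction of group and name form had adjusted p of 0.962 to 1, where 0.0218% of all genes were called for db/db vehicle against db/m and 0.00728% for puerarin against db/db vehicle. For Cdkn1a, db/db vehicle against db/m gave 0.39 in group-tag and 0.54 in S-number libraries, and puerarin against db/db vehicle gave 0.27 and 0.24. For Sesn2, the values were 0.40 and 0.44 in db/db vehicle against db/m, and -0.42 and -0.58 in puerarin against db/db vehicle. With 1 puerarin library carrying an S number, such a test has little to rest on.

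Ccng1 encodes cyclin G1, a p53 target that helps keep MDM2 active. It had 70.2, 78.3 and 80.4 CPM in puerarin libraries, 84.7, 75.9, 72.8 and 94.4 CPM in db/db vehicle libraries and 73.3, 69.0, 77.7 and 61.1 CPM in db/m libraries. The groups overlapped. Its log2 fold change was 0.22 (SE 0.11, adjusted p 0.529) in db/db vehicle against db/m, -0.11 (SE 0.12) in puerarin against db/db vehicle and 0.11 (SE 0.12) in puerarin against db/m. The puerarin values were -0.20 and 0.02 without libraries 2 and 3.

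Bax and Bbc3 belong to the death arm. Bax encodes a protein that opens pores in the outer mitochondrial membrane. It had 51.9, 53.7 and 40.0 CPM in puerarin libraries, 45.4, 54.9, 49.4 and 47.7 CPM in db/db vehicle libraries and 45.1, 43.6, 44.8 and 50.6 CPM in db/m libraries. The ranges overlapped, and the log2 fold changes were 0.10, -0.02 and 0.08 in the 3 comparisons, each with an SE of 0.11 or 0.12. Without puerarin libraries 2 and 3 the puerarin values were 0.10 against db/db vehicle and 0.21 against db/m. Bbc3 encodes PUMA, which frees BAX from its inhibitors. It was low in every library, at 4.78, 4.28 and 6.88 CPM in puerarin, 3.98, 3.94, 6.04 and 5.16 CPM in db/db vehicle and 4.04, 4.72, 5.09 and 7.14 CPM in db/m libraries. Its log2 fold changes were -0.14, 0.10 and -0.03, each within its SE of 0.18 or 0.19, and without puerarin libraries 2 and 3 the puerarin values were 0.28 and 0.15.

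Trp53inp1 encodes a stress-induced protein that promotes p53 activity and autophagy. It had 134.6, 132.7 and 115.6 CPM in puerarin libraries, 149.3, 107.2, 160.6 and 123.2 CPM in db/db vehicle libraries and 144.2, 152.5, 157.0 and 99.8 CPM in db/m libraries. The groups overlapped over nearly their whole range. Its log2 fold changes were -0.03, -0.08 and -0.11 in the 3 comparisons, with SE of 0.17 to 0.18. The puerarin values without libraries 2 and 3 were -0.0035 against db/db vehicle and -0.04 against db/m.

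Phlda3 encodes a repressor of the survival kinase AKT. It had 36.0, 20.5 and 27.4 CPM in puerarin libraries S144, 2 and 3, against 27.8, 28.2, 29.1 and 28.3 CPM in db/db vehicle and 20.7, 25.3, 22.3 and 27.4 CPM in db/m libraries. The vehicle libraries had an SD of 0.55 CPM (n = 4), and all lay above the db/m libraries by a narrow margin, where 2.48% of all genes showed no overlap in that direction. The puerarin libraries held both the highest and the lowest Phlda3 value of the series. The log2 fold change was 0.24 (SE 0.15, adjusted p 0.640) in db/db vehicle against db/m and -0.01 (SE 0.17) in puerarin against db/db vehicle. In that second comparison the value was 0.36 in S-number and -0.26 in group-tag libraries, and their difference was not called (-0.62, SE 0.28, adjusted p 0.962). Puerarin against db/m gave 0.23 (SE 0.17). Without puerarin libraries 2 and 3 the values were 0.40 against db/db vehicle (adjusted p 0.802) and 0.65 against db/m (adjusted p 0.513).

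Sesn2 and Gdf15 respond to metabolic and protein-folding stress through ATF4 as well as to p53. Sesn2 encodes a leucine sensor that restrains the growth kinase complex mTORC1. It had 7.93, 9.23 and 10.9 CPM in puerarin libraries and 12.2, 11.6, 13.4 and 13.6 CPM in db/db vehicle libraries, against 10.8, 6.69, 9.19 and 11.3 CPM in db/m libraries. All 4 vehicle libraries lay above every db/m library and above every puerarin library, by a gap of under 1 CPM to the nearest one on each side. The share of all genes with no overlap in the same direction was 2.48% for db/db vehicle above db/m and 1.72% for puerarin below db/db vehicle. The log2 fold change was 0.42 (SE 0.15, adjusted p 0.372) in db/db vehicle against db/m and -0.49 (SE 0.17, adjusted p 0.967) in puerarin against db/db vehicle. The value without puerarin libraries 2 and 3 was -0.56 (adjusted p 0.802). Both comparisons share the vehicle libraries, and puerarin against db/m gave -0.07 (SE 0.16), or -0.14 without libraries 2 and 3. The means were 9.36 ± 1.49 CPM in puerarin libraries (SD, n = 3), 12.7 ± 0.973 CPM in vehicle libraries and 9.51 ± 2.09 CPM in db/m (SD, n = 4 each).

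Gdf15 encodes a secreted stress cytokine of the TGF-beta superfamily. It was the least abundant member, at 2.09, 5.81 and 2.57 CPM in puerarin libraries, 4.01, 2.96, 7.21 and 4.08 CPM in db/db vehicle libraries and 6.40, 4.36, 3.53 and 4.90 CPM in db/m libraries. High and low libraries occurred in every group, and the groups overlapped. Its log2 fold changes had SE of 0.35 to 0.40, the widest of the members: -0.13 in db/db vehicle against db/m, -0.46 in puerarin against db/db vehicle and -0.59 in puerarin against db/m (adjusted p 0.705). Single libraries moved the puerarin values. Against db/db vehicle the value was -0.96 without puerarin 2, -0.19 without puerarin S144, -0.25 without puerarin 3 and -0.15 without vehicle 1. Against db/m it was -1.06 without puerarin 2, -0.29 without puerarin S144, -0.39 without puerarin 3 and -0.37 without db/m S184. Without puerarin 2 and 3 together the values were -1.0 and -1.10. The db/db vehicle against db/m value was -0.63 in S-number and 0.42 in group-tag libraries, a difference that was not called.

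Beyond the members, 46 other genes listed as p53 targets were measured, grouped by role, and 0 were called in any of the 3 comparisons. Whether p53 controls each of the 46 was not tested. Before adjustment, 2 of the 46 had p under 0.05 in db/db vehicle against db/m, 3 in puerarin against db/db vehicle and 5 in puerarin against db/m. Of all genes, 10.3%, 4.21% and 10.3% did. The median log2 fold change of the 46 was 0.03 in db/db vehicle against db/m, 0.01 in puerarin against db/db vehicle and 0.06 in puerarin against db/m, with single genes between -0.55 and 0.77. Without puerarin libraries 2 and 3 the medians of the puerarin comparisons were 0.02 and 0.06. Where 3 values follow a gene below, they are its log2 fold changes in these comparisons, in that order. Where groups are said below not to overlap, the shares of all genes doing so, higher and lower, were these. They were 2.48% and 2.48% in db/db vehicle against db/m. Puerarin had 1.51% and 1.72% against db/db vehicle, and 3.73% and 3.92% against db/m. Genes named for a small p are more likely to be among them. No share was computed for both db/db groups lying above db/m.

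Among 7 measured growth arrest targets, Gtse1, which encodes a microtubule-binding protein that restrains p53, had the highest value in db/db vehicle against db/m (0.76, SE 0.27, adjusted p 0.352). It had 2.81, 2.05, 2.76 and 3.97 CPM in db/db vehicle libraries, against 1.70, 1.08, 2.25 and 1.82 CPM in db/m libraries, and these overlapped. Its puerarin values were -0.35 against db/db vehicle and 0.41 against db/m. Gadd45a had -0.24, 0.35 and 0.11, Btg2 had 0.13, -0.10 and 0.03, and the kinase gene Plk2 had 0.31, 0.39 and 0.70. The genes of growth arrest thus took both signs. Without puerarin libraries 2 and 3, Gadd45a and Plk2 had -0.07 and -0.22 against db/db vehicle, the opposite sign.

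Of 12 measured death targets, Fas, a death receptor, had -0.03, 0.18 and 0.15, and Pmaip1, which encodes NOXA, had 0.48, -0.01 and 0.47. Perp, a membrane protein gene, had 0.04, -0.32 and -0.28, and the nuclease gene Aen had 0.07, -0.06 and 0.01. The smallest p-values of the list in db/db vehicle against db/m belonged to Trp53i11 (-0.36, SE 0.16) and the death scaffold gene Pidd1 (0.35, SE 0.22). Siva1 had 0.30 (SE 0.13) in puerarin against db/db vehicle, and Apaf1, which encodes the apoptosome scaffold, had 0.27 (SE 0.12) in puerarin against db/m. The death receptor gene Tnfrsf10b had 2.92, 3.46 and 3.92 CPM in puerarin libraries, above the 2.20 to 2.85 CPM of db/db vehicle and the 1.84 to 2.76 CPM of db/m libraries. Its log2 fold changes were 0.43 (SE 0.19, adjusted p 0.967) and 0.58 (SE 0.19, adjusted p 0.312), and 0.20 and 0.36 without puerarin libraries 2 and 3. Such a lack of overlap was shown by 1.51% of all genes against db/db vehicle and by 3.73% against db/m.

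The 7 measured repair targets ran from -0.10 to 0.04 in db/db vehicle against db/m, with the damage sensor gene Ddb2 at the low end. The other repair gene of lowest p there was Fancc at -0.06, and Rrm2b, which encodes a ribonucleotide reductase subunit, had 0.03. In the puerarin comparisons the lowest p-values belonged to the repair genes Xpc (-0.11 and -0.07) and Ercc5 (0.08 and 0.06). Of 7 genes listed under feedback on p53, Ppm1d, which encodes a phosphatase that switches p53 signalling off, had -0.13, 0.03 and -0.10. The p53 inhibitor gene Mdm4 had -0.12, 0.23 and 0.11. Trim24 and Trp53inp2 had 0.17 and 0.11 in db/db vehicle against db/m. Trp53inp2 had 0.11 in puerarin against db/m, and the ubiquitin ligase gene Fbxw7 had 0.17 and 0.20 in the puerarin comparisons.

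Of 13 targets with metabolic and other roles, Eda2r, which encodes a receptor of the tumour necrosis factor family, had 0.72 (SE 0.24, adjusted p 0.344) in db/db vehicle against db/m. It had 1.84 to 2.32 CPM in puerarin libraries, above the 0.660 to 1.51 CPM of db/m libraries, with 0.77 (SE 0.26, adjusted p 0.322), and 1.3 without puerarin libraries 2 and 3. Sesn1, the relative of Sesn2, had -0.08, -0.30 and -0.38, and its puerarin libraries, at 48.4 to 59.2 CPM, lay below the db/m libraries at 61.0 to 79.4 CPM. Its puerarin values without libraries 2 and 3 were -0.17 and -0.25. The growth factor gene Tgfa had -0.21 in db/db vehicle against db/m, and 0.25 in puerarin against db/db vehicle with no overlap, or 0.28 without those libraries. Tigar, which lowers glycolytic flux, had 0.17, -0.04 and 0.13, and the RNA-binding protein gene Zmat3 had 0.15, 0.01 and 0.15.

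None of the 11 measured kinases, partners and relatives of p53 was called. The acetyltransferase gene Crebbp, which encodes a p53 partner, had 25.6 to 32.4 CPM with puerarin, against 18.2 to 24.1 CPM in db/db vehicle (0.41, SE 0.12, adjusted p 0.967), and 0.55 without puerarin libraries 2 and 3. The db/m libraries were at 26.0 to 31.4 CPM, also above db/db vehicle (-0.43 for db/db vehicle against db/m, SE 0.11, adjusted p 0.199). Trp53bp1, a double-strand break sensor, had -0.18 in db/db vehicle against db/m and 0.15 in puerarin against db/db vehicle. The damage kinase gene Atm had -0.09, -0.04 and -0.12. Prkdc, which encodes another damage kinase, had 0.15 in puerarin against db/m with no overlap, and 0.27 without those libraries.

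**Figure D4:**
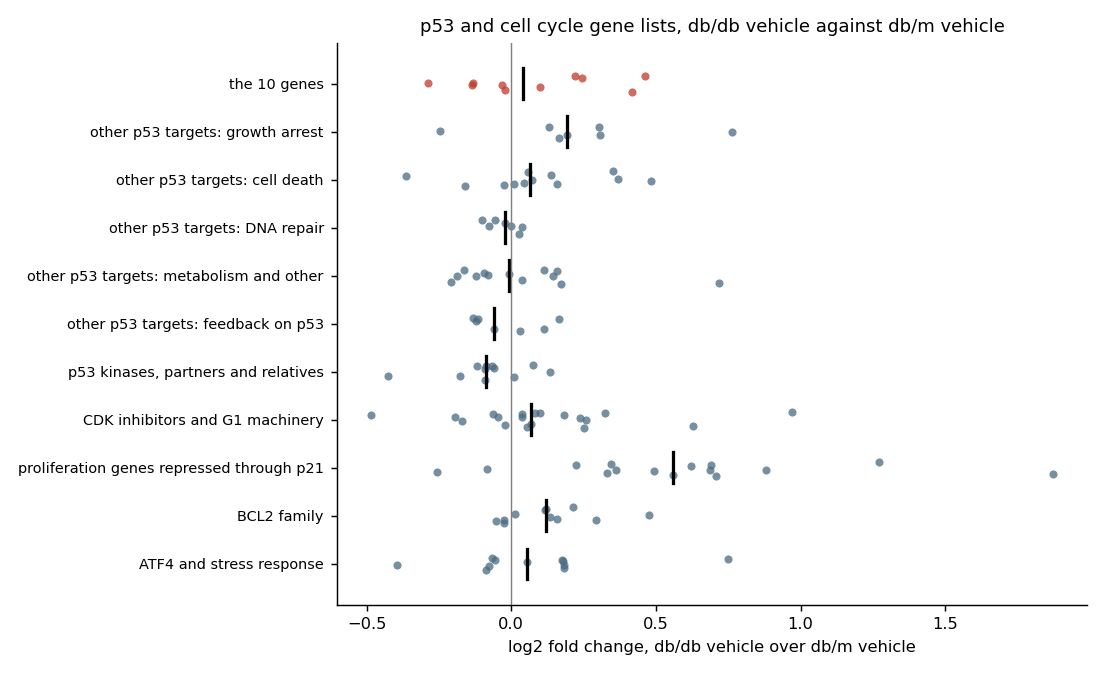
Log2 fold change of single genes in each gene list for db/db vehicle against db/m vehicle, with the median of each list as a bar. The medians of the p53 target lists lie between -0.06 and 0.19, and the median of the proliferation list lies at 0.56.

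Other cell cycle inhibitors and the genes of dividing cells give the setting for Cdkn1a. Of 19 measured cyclin-dependent kinase inhibitors and G1 genes, 0 were called in each comparison. In db/db vehicle against db/m, 13 of the 19 were positive, where 53.5% of all genes were. Their median was 0.07, with single genes from -0.49 to 0.97. There the groups did not overlap for 3 genes higher and 1 gene lower in db/db vehicle. Cdkn2b, which encodes the inhibitor p15, had 2.85, 1.5 and 1.61 CPM in puerarin libraries and 1.91, 1.5, 1.44 and 1.60 CPM in db/db vehicle libraries, against 0.914, 1.04, 0.617 and 0.771 CPM in db/m libraries. Every db/db library lay above every db/m library, with 0.97 (SE 0.20, adjusted p 0.135) for db/db vehicle and 1.3 (SE 0.21, adjusted p 0.0551) for puerarin against db/m. The puerarin value without libraries 2 and 3 was 1.64. Of all genes, 2.48% showed no overlap in that direction for db/db vehicle and 3.73% for puerarin against db/m. Cdkn2c, which encodes p18, had 0.63 (SE 0.14, adjusted p 0.155) in db/db vehicle against db/m, again with no overlap. Its puerarin libraries, at 12.4 to 14.4 CPM, lay just below the db/db vehicle libraries at 14.6 to 16.7 CPM. That difference was -0.25 (SE 0.16), and -0.07 without libraries 2 and 3. The p21 relatives Cdkn1b and Cdkn1c had 0.04 and 0.18 in db/db vehicle against db/m, each overlapping between groups. Ccnd1, which encodes a cyclin that drives entry into the cycle, had 0.32, -0.18 and 0.14. Its puerarin libraries, at 204 to 212 CPM, lay just below the db/db vehicle libraries at 213 to 270 CPM, and the value was -0.14 without libraries 2 and 3. E2f3 had 0.19 in puerarin against db/db vehicle, and Ccnd3 had 0.25 in puerarin against db/m. The puerarin libraries of E2f3, at 31.5 to 31.7 CPM, lay above the db/m libraries at 25.1 to 29.6 CPM. That E2f3 difference was 0.17, or 0.25 without libraries 2 and 3.

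Proliferation genes that p21 is known to repress in other settings were measured for 15 of 22 listed, and 0 were called. In db/db vehicle against db/m, 13 of the 15 had positive values, with a median of 0.56 beside 0.02 for all genes. In puerarin against db/m, 14 of 15 were positive, with a median of 0.37, or 0.55 without puerarin libraries 2 and 3. Puerarin against db/db vehicle had 7 of 15 positive and a median of -0.04, and 9 of 15 with 0.09 without those libraries. With all libraries, 53.5%, 47.7% and 44.7% of all genes were positive in these comparisons, in the order of this paragraph. Cdk1, the kinase that drives mitosis, had 3.49, 2.89 and 2.78 CPM with puerarin and 4.06, 1.17, 3.38 and 1.82 CPM in db/db vehicle libraries, against 0.812, 0.836, 0.247 and 0.970 CPM in db/m libraries. All db/db libraries lay above the db/m libraries, with 2.13 (SE 0.48, adjusted p 0.130) for puerarin and 1.87 (SE 0.45, adjusted p 0.182) for vehicle against db/m, and 2.21 for puerarin without libraries 2 and 3. The division marker Mki67 had 1.27 (SE 0.34, adjusted p 0.214), -0.09 and 1.18, and 1.56 in the last without those libraries. Cdc20, an activator of mitotic exit, had 0.71 (SE 0.18, adjusted p 0.188) in db/db vehicle and 0.67 (SE 0.19, adjusted p 0.238) in puerarin against db/m, the second being 0.82 without those libraries. Both groups lay above db/m. In puerarin against db/db vehicle the lowest p-values of the list were those of Cenpa (0.58, SE 0.21) and Rrm2 (-0.31, SE 0.22). Cdk1 and Mki67 also mark dividing blood cells, and all 8 myeloid markers were measured, with sums of 77.5 to 169.9 CPM in puerarin, 85.9 to 684.9 CPM in db/db vehicle and 43.5 to 142.8 CPM in db/m libraries. Their part in these values was not tested.

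In the BCL2 family, which decides whether BAX opens its pores, 0 of 11 measured genes were called. The survival genes Bcl2, Bcl2l1 and Mcl1 had 0.13, 0.12 and 0.12 in db/db vehicle against db/m. Bok, a relative of Bax, had 0.48 (SE 0.15, adjusted p 0.283) there and 0.48 (SE 0.16) in puerarin against db/m, and Bad had 0.21 in db/db vehicle against db/m. Puerarin against db/db vehicle gave 0.13 for Bcl2l2 and -0.39 (SE 0.29) for Bmf. Of 11 genes of the ATF4 stress response, 0 were called. Atf4 itself had 0.18, 0.14 and 0.33 in the 3 comparisons. In db/db vehicle against db/m, 6 of the 11 were positive, where 53.5% of all genes were. Their median was 0.06, with single genes from -0.39 to 0.75. The Atf4 targets Asns and Ddit3 had -0.08 and -0.09 there. Whether ATF4 had a part in the Sesn2 values was not tested. The puerarin libraries of Atf4, at 199 to 250 CPM, lay above the db/m libraries at 164 to 197 CPM, with 0.33 (SE 0.10, adjusted p 0.259), and 0.53 without puerarin libraries 2 and 3. Atf3 had 0.75 (SE 0.43) in db/db vehicle against db/m, and Ppp1r15a had 0.31 and 0.49 in the puerarin comparisons. Chek1, Cdkn2a and Trib3 were not analysed here.

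The genes whose pattern over the 11 libraries was most like that of Cdkn1a were Eln, which encodes elastin, Tox, Myom1, Slco4a1 and Rergl. Likeness was the root mean square difference of log2 CPM after centring each gene, among 13716 genes with a mean of at least 1 CPM, and these 5 lay at 0.21 to 0.25. Eln had 34.9, 45.0 and 49.98 CPM in puerarin and 26.0, 21.7, 53.6 and 38.1 CPM in db/db vehicle libraries, against 13, 16.3, 31.1 and 32.7 CPM in db/m libraries. Eln shared the low S-number values of Cdkn1a in every group, which its choice by likeness over these same libraries favours. None of the other members was close by this measure: Bbc3 came nearest at rank 1057 and Gdf15 farthest at rank 11819. The measure also depends on how much a gene varies, so a steady gene cannot come close whatever its pattern. The SD of log2 CPM was 0.59 for Cdkn1a, against 0.11 for Mdm2, 0.14 for Bax and 0.16 for Ccng1.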

How the data were processed

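The authors' deposited counts gave whole reads per transcript for 22320 RefSeq transcripts. Of 15 count columns, 4 matched no sample and were not used. BWA, limma and the build mm10 are named in the submitters' processing notes without versions. The counting method and the strand setting are not given in the sources used here. Reads of Cdkn1a and AC167363.2 (opposite strand), and of Bax and Gm45808 (same strand), cannot therefore be told apart. The labels name 2 sequencing sites and assign no library to them.

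Counts were summed to 13734 genes, with 13 blank cells as 0 and 50 date-like symbols restored by gene identifier. Across libraries, the lower of 2 Cdkn1a transcripts held 86.6% to 90.9% of the higher. Deposited starts count from 0 and were written from 1. Groups came from the labels, and within each of them every pair of libraries differed by more than sampling noise (chi-square per degree of freedom 19.4 to 125.0). CPM values were scaled with TMM factors.

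The test was edgeR 4.0.16 (glmQLFit, glmQLFTest, two-sided) in R 4.3.3 over the 11 libraries, with terms for group and name form. It had 7 residual degrees of freedom and 3.14 prior ones. DESeq2 1.42.0, leaving out libraries and other settings were alternatives. Tested on simulated data with 200 of 13734 genes changed, the fit found 26%, 81.2% and 90.5% of genes changed 1.5-, 2- and 3-fold in db/db vehicle against db/m. The shares were 22%, 70.1% and 95.9% in puerarin against db/db vehicle, and 14.8%, 76.3% and 82.5% in puerarin against db/m. False calls were 5 of 133, 11 of 142 and 7 of 126 calls in the 3 comparisons. The simulated libraries had no difference by name form, and a gene's mean differed only by the planted change. The fit to the measured counts called 6, 0 and 25 genes, so these shares need not hold for it.

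The members, gene lists and tests were chosen with earlier results of these data known. Besides the members, genes were named by a rule: in each list the 2 with the smallest p in each comparison, a set of named genes, and the 5 most like Cdkn1a. Promoter windows came from RefSeq (GRCm38.p6) and overlapping genes from GENCODE M21.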

Additional observations from a re-analysis of the deposited data

How the results depend on the processing

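Each of 25 alternatives was run for the 10 members and for the counts of calls. One of them, the fit without a filter on counts, could not differ, since the filter removed 0 genes. Cdkn1a kept its direction in all of them. In db/db vehicle against db/m so did Trp53, Ccng1, Bax, Bbc3, Phlda3 and Sesn2. A kept direction was thus not particular to members with a low p, and Bbc3 ran from -0.291 to -0.017. For other genes only the setting without puerarin libraries 2 and 3 was used, chosen after seeing the data. Of the member values, 734 kept their direction and side of the threshold, 3 passed it (Cdkn1a, values given with that gene) and 53 changed sign. The number of genes called in db/db vehicle against db/m was 6 in the reported fit, 1 without the name form term, 290 with DESeq2, 2 with only the 2 groups compared, 0 in group-tag libraries alone, 2 without puerarin libraries 2 and 3, 0 without db/m libraries S184 and S185, 71 with the tubule covariate and 0 to 82 when each library was left out in turn. For puerarin against db/db vehicle it was 0, and 15 with DESeq2, 1 in group-tag libraries and 0 to 5 with a library left out. For puerarin against db/m it was 25, and 5 without the name form term, 297 with DESeq2, 5 with only the 2 groups, 2 in S-number and 1 in group-tag libraries, 0 without puerarin libraries 2 and 3, 0 without db/m S184 and S185, 288 with the tubule covariate and 0 to 74 with a library left out. Members called numbered 1 with DESeq2 in both comparisons with db/m and 1 with the tubule covariate in puerarin against db/m. With a library left out, 0 to 0 were called in each group comparison and 1 to 1 by name form. The cause of these shifts was not tested. Gdf15, at 2.09 to 7.21 CPM, had the fewest counts among the members and the widest errors. With a library left out, its value ran from -0.957 to -0.15 in puerarin against db/db vehicle and from -1.06 to -0.294 in puerarin against db/m.

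The shared numbers 2 and 3 of puerarin and db/m libraries gave a correlation of deviations of 0.0563 over 13734 genes, so they were not taken as pairs. The fit with the replicate block called 56, 0 and 49 genes in the 3 comparisons, and 0 members.

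Values that changed sign were these. In db/db vehicle against db/m, Mdm2 was 0.0108 with the replicate block, 0.0047 in group-tag libraries and 0.0308 without S184 and S185. Trp53inp1 was 0.143 in group-tag libraries, 0.0918 without S184 and S185 and 0.0248 with the tubule covariate, and Gdf15 was 0.427 in group-tag libraries and 0.479 without S184 and S185. In puerarin against db/db vehicle, Trp53 was 0.0623 with the replicate block, Bax was 0.0065 with only the 2 groups, 0.0833 in S-number libraries and 0.105 without puerarin 2 and 3, Bbc3 was -0.0175 in group-tag libraries, and Trp53inp1 was 0.103 in S-number libraries. Phlda3 in that comparison was 0.0032 without TMM, 0.0140 with only the 2 groups, 0.0913 with the replicate block, 0.396 in S-number libraries and 0.40 without puerarin 2 and 3. In puerarin against db/m, Mdm2 was -0.0030 and Ccng1 -0.0045 in S-number libraries, Bax was -0.0342 in group-tag libraries and -0.0048 without S184 and S185, and Bbc3 was 0.0184 without the name form term, 0.141 in S-number libraries and 0.149 without puerarin 2 and 3. Phlda3 was -0.0614 in group-tag libraries and Trp53inp1 was 0.0053 without S184 and S185. With each library left out in turn, the ranges in db/db vehicle against db/m were -0.0525 to 0.0101 for Mdm2, -0.168 to 0.0881 for Trp53inp1 and -0.362 to 0.126 for Gdf15. The ranges in puerarin against db/db vehicle were -0.0731 to 0.0494 for Trp53, -0.105 to 0.109 for Bax, -0.0252 to 0.284 for Bbc3, -0.278 to 0.161 for Phlda3 and -0.179 to 0.0614 for Trp53inp1. Those in puerarin against db/m were -0.0058 to 0.211 for Bax, -0.160 to 0.148 for Bbc3, -0.0325 to 0.406 for Phlda3, -0.246 to 0.0189 for Trp53inp1 and -0.169 to 0.0589 for Sesn2.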
